A study of Mus musculus with 24 samples.

Results

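The genes described here encode chromatin remodellers and histone modifiers. They were taken as every gene whose symbol is Chd1 to Chd9 or Atrx, or begins with Smarc, Kmt2, Kdm, Setd, Arid or Hdac followed by its number or letter. On the Affymetrix Mouse 430 2.0 array, 196 of 45037 probe sets carried 1 such symbol, for 76 of the 18193 genes named on the array. By the roles of their products, 16 genes encode ATPase remodellers, 10 encode subunits of the BAF and PBAF complexes, 6 encode other ARID proteins, 15 methyltransferases or their relatives, 18 histone demethylases and 11 histone deacetylases. RNA came from the cerebral cortex, stripped of white matter, of male FVB mice at postnatal day 7. Wild-type (WT) pups were set against littermates lacking Fmr1 (Fmr1 KO), the fragile X syndrome gene, which encodes the RNA-binding protein FMRP. Each genotype gave 6 lysates, each a pool of 2 mice prepared in cycloheximide, a drug that holds ribosomes in place on the mRNA. Each lysate gave 1 array of total RNA, which is cytoplasmic RNA from the cleared lysate, and 1 array of polyribosomal RNA, from the sucrose gradient fractions with 6 or more ribosomes per mRNA. The 4 groups of 6 arrays were thus WT total, WT polyribosomal, Fmr1 KO total and Fmr1 KO polyribosomal RNA.

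Chromatin remodellers use ATP to slide, eject or exchange nucleosomes, the spools of DNA and histones. Methyltransferases and demethylases write and remove methyl groups on histones, and deacetylases remove acetyl groups. In developing cortex these enzymes take part in switching neural progenitors to neurons and in neuronal gene expression, and mutations in many of their genes cause human intellectual disability or autism. FMRP binds mRNAs and is known as a brake on their translation, and several chromatin regulators are among its known mRNA targets.

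Values are log2 intensities, and a difference of 1 is a 2-fold change. Polyribosomal RNA was loaded at the same mass as total RNA (10 µg), so a polyribosomal minus total difference says how far an mRNA stood above or below the rest of the RNA on 6 or more ribosomes, not how many of its copies were translated. Fmr1 signal at its brightest probe set averaged 9.66 in WT total RNA against 6.38 in Fmr1 KO total RNA, and its groups did not overlap at any of its 3 probe sets (exact two-sided permutation p = 0.00216 at each). Between 38.8% and 40.0% of probe sets reached a log2 value of 4 on an array, and the mean correlation of an array with the others of its group was 0.993 to 0.997. Of 47 cell-type and region markers measured, all 6 of excitatory cortical neurons and all 5 of interneurons were above this value on average (means 7.65 to 12.1), and both blood markers were below it on every array. The striatal markers Drd1 (mean 7.0) and Ppp1r1b (5.39) were also above it on average. So were Cbln1 (6.21) and Hoxa5 (4.73) among 4 hindbrain and cerebellum markers, of which the other 2 were below 4 on every array. No marker was called between genotypes, of 31 tested. The choroid plexus marker Ttr varied widely within groups, from 3.374 through a median of 10.46 to 11.43 in WT total RNA and from 2.653 through 6.842 to 11.3 in Fmr1 KO total RNA, while the other 2 choroid plexus markers were below 4 on every array. Its part in the results was not tested.

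Of the 76 genes, 66 were measured well enough to be tested between polyribosomal and total RNA, which meant that 6 or more of the 12 arrays compared had a log2 value of 4 or higher. A gene is represented by its brightest probe set unless stated otherwise. Chd7, the CHARGE syndrome remodeller, and Arid3a, Arid3b, Arid5a, Hdac7, Hdac10, Kdm4d, Setd1a and Setdb2 were too dim for any comparison (mean log2 value 2.30 to 3.89), and Kdm8 (mean 4.01) was tested in only 2 of the 5.

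In WT cortex, polyribosomal RNA held some of these mRNAs above and others below their level in total RNA. With limma and Benjamini-Hochberg adjustment over all probe sets tested (threshold 0.05), 21 of the 66 genes were higher in polyribosomal than in total RNA, where 37.5% of all 9725 genes tested were higher, and 25 were lower, where 28.4% of all genes were lower. These are 31.8% and 37.9% of the group, so it lay somewhat below the array's share for higher calls and above it for lower calls. In Fmr1 KO, 16 of 66 were higher (24.2%, against 38.7% of all genes) and 26 were lower (39.4%, against 28.2%). The median difference of the group was −0.06 in WT and −0.09 in Fmr1 KO, and that of all genes was 0.09 in both. The ATPase remodellers and the ARID proteins outside the BAF complexes were mostly lower, and the deacetylases and several BAF subunits were mostly higher.

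**Figure D1:**
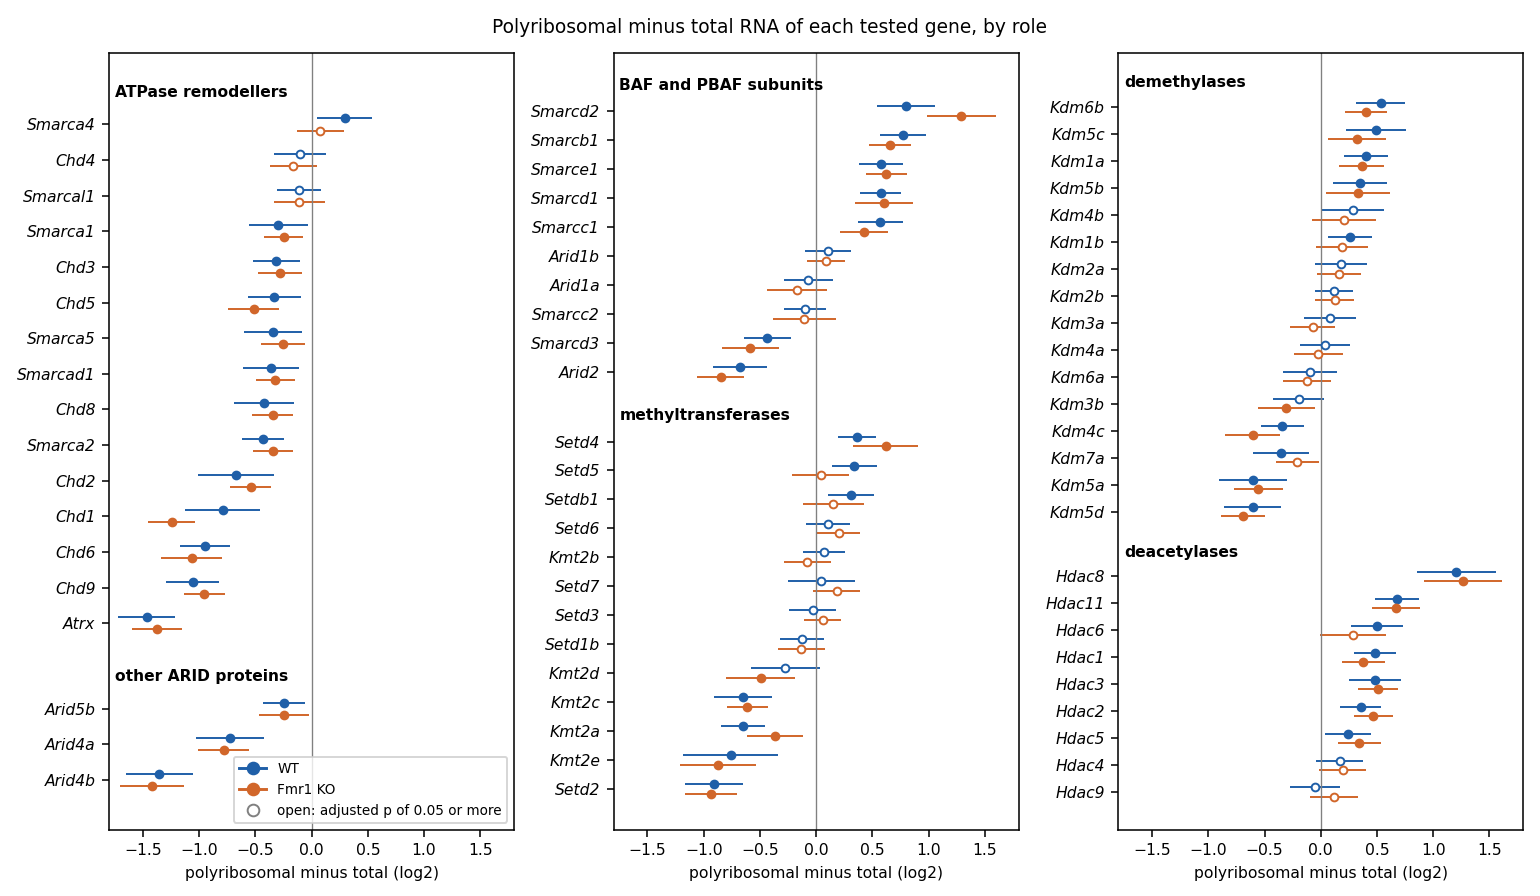
Polyribosomal minus total difference (log2) of each tested gene, by the role of its product, with WT in blue, Fmr1 KO in orange, open symbols where the gene was not called and a bar for the 95% confidence interval (6 lysates per genotype). Atrx, Arid4b and the Chd genes lie to the left of 0 and Hdac8, Smarcd2 and Smarcb1 to the right in both genotypes.

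Of the 15 ATPase remodellers tested, 12 were lower in polyribosomal RNA in WT (80.0%, against 28.4% of all genes). The call was higher for 1 (6.67%, against 37.5%) and absent for 2, with a median difference of −0.36. In Fmr1 KO 12 were lower (80.0%, against 28.2% of all genes) and 3 were not called (median −0.34). Atrx, an X-linked remodeller that deposits histone H3.3 at heterochromatin and telomeres, showed the largest fall in WT. Its lowest, median and highest log2 values were 11.35, 11.68 and 11.8 in WT total RNA and 9.694, 10.19 and 10.6 in WT polyribosomal RNA. Every polyribosomal array lay below every total array, a difference of −1.47 (SE 0.115, limma adjusted p = 1.13e-06). In Fmr1 KO the values were 11.23, 11.59 and 11.68 in total and 9.795, 10.17 and 10.71 in polyribosomal RNA, again without overlap (−1.38, SE 0.101, adjusted p = 6.16e-07). All 7 Atrx probe sets were lower in both genotypes, by −1.11 to −2.09 in WT.

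The CHD proteins are remodellers with paired chromodomains. Of the 8 Chd genes tested, 7 (87.5%) were lower in polyribosomal RNA in each genotype, where 28.4% of all genes were lower in WT and 28.2% in Fmr1 KO. The remaining Chd gene was the same in both, Chd4 of the NuRD corepressor complex. It was not called in either (−0.10 and −0.16), though it was in Fmr1 KO without lysate 2 (−0.237, adjusted p = 0.0397). Chd9 ran from 8.838 through a median of 8.956 to 9.14 in WT total RNA and from 7.669 through 7.891 to 8.217 in WT polyribosomal RNA. The ranges were separate, with a difference of −1.06 (SE 0.109, adjusted p = 8.63e-06) in WT and −0.95 (SE 0.0817, adjusted p = 1.83e-06) in Fmr1 KO. Chd6 had values of 6.4, 6.681 and 6.798 in WT total RNA and 5.404, 5.738 and 5.996 in WT polyribosomal RNA. Its ranges did not overlap either, and the difference was −0.95 (SE 0.102) in WT and −1.07 (SE 0.123) in Fmr1 KO. Chd1, which binds the methylated histone H3 of active promoters, had values of 6.809, 6.996 and 7.519 in WT total RNA and 5.883, 6.123 and 6.869 in WT polyribosomal RNA. These overlapped slightly (−0.79, SE 0.152, adjusted p = 0.000789), while in Fmr1 KO the values of 6.988, 7.096 and 7.525 in total and 5.702, 5.932 and 6.265 in polyribosomal RNA were apart (−1.24, SE 0.0945). Chd2, an epilepsy gene, was lower by −0.68 in WT and −0.54 in Fmr1 KO. Chd8, a leading autism gene, was lower by −0.42 and −0.35, and Chd5, a remodeller of neurons, by −0.33 and −0.51. For Chd3 the differences were −0.31 and −0.28, and the call was lost without lysate 6 of WT (−0.232, adjusted p = 0.0568) and without lysate 3 (−0.217, 0.0598) or 6 (−0.242, 0.0651) of Fmr1 KO.

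The 2 catalytic ATPases of the BAF complex differed in direction in WT. Smarca2 (BRM) ran from 10.94 through 11.03 to 11.21 in WT total RNA and from 10.22 through 10.64 to 10.86 in WT polyribosomal RNA. It was lower without overlap (−0.44, SE 0.0853, adjusted p = 0.000896), and lower by −0.34 in Fmr1 KO with overlap. Smarca4 (BRG1) ran from 10.33 through 10.57 to 10.66 in WT total RNA and from 10.38 through 10.92 to 11.04 in WT polyribosomal RNA. It was higher in 5 of 6 WT lysates (0.29, SE 0.112, adjusted p = 0.0372), a call lost without any one of lysates 1, 2, 3, 5 or 6 (adjusted p 0.0611 to 0.125, differences 0.231 to 0.298), and not called in Fmr1 KO (0.08, adjusted p = 0.5). A second Smarca4 probe set was higher in both genotypes, by 1.09 (SE 0.186) and 0.79 (SE 0.162), so its probe sets disagreed in size but not in direction. The ISWI ATPases Smarca1 and Smarca5 were lower by −0.29 and −0.34 in WT and by −0.25 and −0.26 in Fmr1 KO. Both calls were fragile: leaving out single lysates raised the adjusted p to as much as 0.136 for Smarca1 (−0.238 without lysate 2 of WT; 1, 4 and 6 also ended it) and 0.0886 for Smarca5 (−0.257 without lysate 2 of WT; 4 and 6 also ended it). In Fmr1 KO the Smarca1 call was lost without lysate 6 (−0.219, adjusted p = 0.0627) and the Smarca5 call without lysate 2, 4 or 6 (−0.218 to −0.238, adjusted p up to 0.082). Smarcad1, a remodeller of DNA repair and heterochromatin, was lower by −0.36 in WT (without lysate 2, −0.303, adjusted p = 0.0557) and −0.32 in Fmr1 KO. Smarcal1, an annealing helicase of stalled replication forks, was not called (−0.11 in both).

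Among the 10 BAF and PBAF subunits tested, 5 were higher, 2 were lower and 3 were not called in each genotype, with medians of 0.34 in WT and 0.26 in Fmr1 KO. These are 50.0% higher and 20.0% lower, against 37.5% and 28.4% of all genes in WT and 38.7% and 28.2% in Fmr1 KO. The higher genes were the core subunits Smarcb1, Smarcc1, Smarcd1, Smarcd2 and Smarce1. Smarcb1, the subunit lost in rhabdoid tumours, had values of 10.03, 10.07 and 10.1 in WT total RNA and 10.49, 10.84 and 11.05 in WT polyribosomal RNA. The ranges were well apart, and the difference was 0.77 (SE 0.0939, adjusted p = 2.94e-05) in WT and 0.66 (SE 0.0849) in Fmr1 KO. Smarcd2 (BAF60B) had values of 5.977, 6.25 and 6.445 in WT total and 6.57, 7.06 and 7.352 in WT polyribosomal RNA, apart by 0.80 (SE 0.119, adjusted p = 0.000129). In Fmr1 KO it had 5.93, 6.24 and 6.537 in total and 7.169, 7.529 and 7.86 in polyribosomal RNA, apart by 1.29 (SE 0.14, adjusted p = 1.02e-05). Smarce1 (BAF57) was higher by 0.58 and 0.62, Smarcd1 (BAF60A) by 0.57 and 0.60, and Smarcc1 (BAF155) by 0.57 and 0.42, in WT and Fmr1 KO in that order. Only 1 of the 3 tested Smarcc1 probe sets, the brightest, was called in either genotype. The others stood at 0.31 and 0.05 in Fmr1 KO, and the lowest in WT stood at 0.03.

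Paralogs of these subunits differed. Smarcd3 (BAF60C), which occupies the place of Smarcd1 or Smarcd2 in the complex, had values of 9.382, 9.544 and 9.726 in WT total RNA and 8.838, 9.129 and 9.381 in WT polyribosomal RNA. It was lower by −0.44 (SE 0.0954, adjusted p = 0.00191) in WT and −0.59 (SE 0.115, adjusted p = 0.000836) in Fmr1 KO, while both its paralogs were higher. Smarcc2 (BAF170) was not called (−0.10 and −0.11, 95% interval −0.284 to 0.0834 in WT). The DNA-binding subunits Arid1a and Arid1b, whose mutations cause Coffin-Siris syndrome, were not called either (−0.07 and 0.10 in WT, −0.17 and 0.09 in Fmr1 KO), though Arid1a was called lower in Fmr1 KO without lysate 2 (−0.286, adjusted p = 0.0352). The PBAF subunit Arid2 was lower at its brightest probe set without overlap (−0.68, SE 0.11 in WT and −0.85, SE 0.0954 in Fmr1 KO) and at another (−0.35 and −0.41), but higher at its remaining one (0.93, SE 0.109 and 0.90, SE 0.0985), so it has no single direction here.

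All 3 tested ARID proteins outside these complexes were lower in both genotypes, where 28.4% of all genes were lower in WT and 28.2% in Fmr1 KO. Arid4b, a subunit of the Sin3 deacetylase complex, had values of 8.573, 8.658 and 9.086 in WT total RNA and 7.061, 7.297 and 8.02 in WT polyribosomal RNA. No polyribosomal array reached the total arrays, and the difference was −1.35 (SE 0.137, adjusted p = 7.56e-06) in WT and −1.42 (SE 0.131, adjusted p = 3.2e-06) in Fmr1 KO. All 3 of its tested probe sets were lower in both. Its paralog Arid4a was lower by −0.72 (SE 0.138) and −0.78 (SE 0.103), also without overlap. Only this 1 of its 3 tested probe sets was called in either genotype (the others stood at 0.11 and −0.16 in WT and at −0.02 and −0.24 in Fmr1 KO), and their average was not called in WT (−0.258, adjusted p = 0.0504). Arid5b was lower by −0.24 and −0.25 but higher at another probe set (0.57 and 0.65). Its call at the brightest probe set was lost without lysate 1, 5 or 6 of WT (−0.205 to −0.233, adjusted p up to 0.0973) and without lysate 3, 4, 5 or 6 of Fmr1 KO (−0.181 to −0.287, adjusted p up to 0.17).

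**Figure D2:**
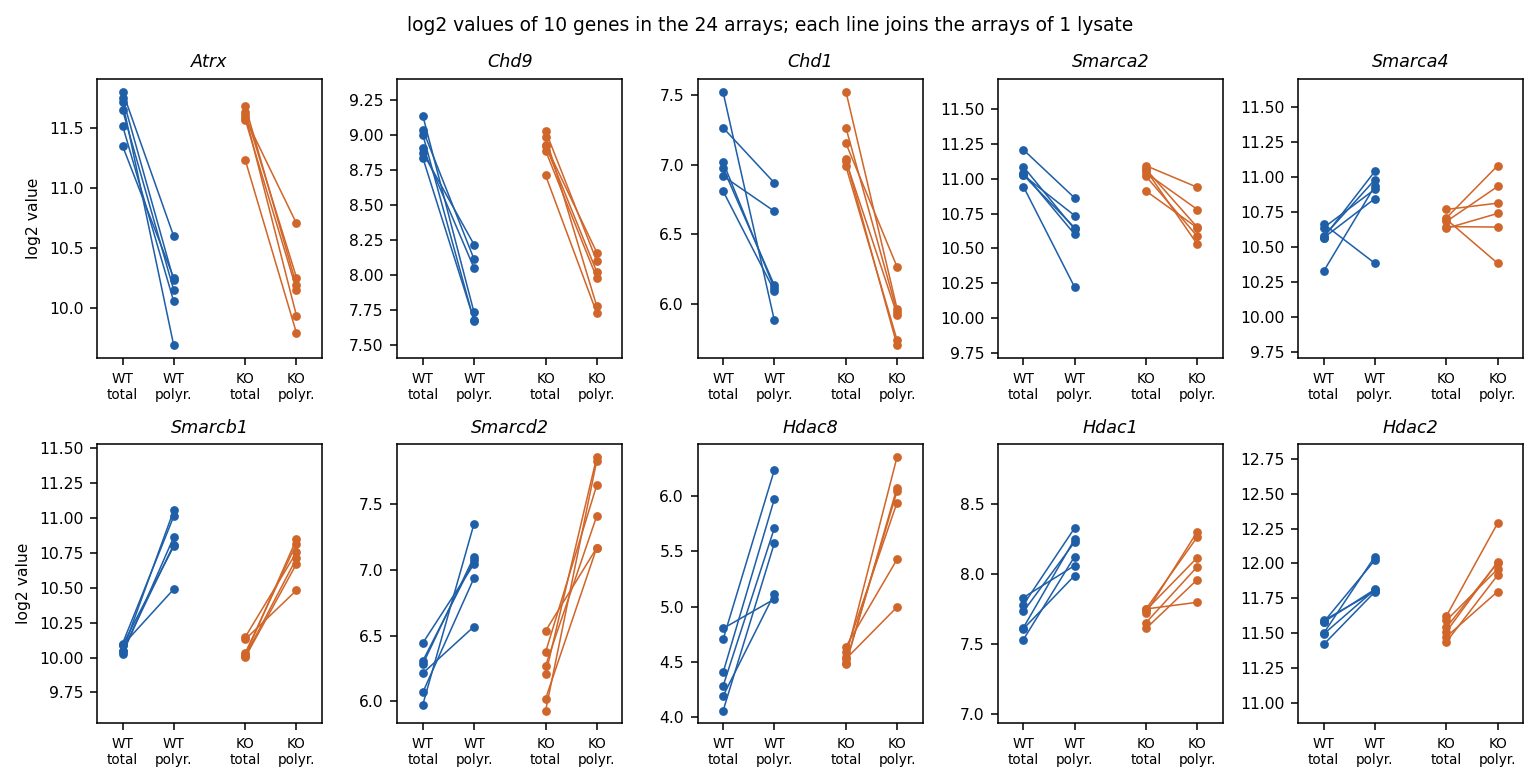
Log2 intensity of 10 genes in total and polyribosomal RNA, with a line joining the 2 arrays of each lysate (6 WT lysates in blue, 6 Fmr1 KO lysates in orange). For Atrx, Chd9 and Hdac8 every line runs the same way and the total and polyribosomal arrays do not overlap.

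Of the 13 methyltransferase genes tested, 3 were higher (23.1%) and 4 were lower (30.8%) in WT, against 37.5% and 28.4% of all genes. In Fmr1 KO 1 was higher (7.69%) and 5 were lower (38.5%), against 38.7% and 28.2% of all genes. The medians of the 13 were −0.03 in WT and −0.08 in Fmr1 KO. Setd2, which writes trimethylation of histone H3 lysine 36 along transcribed genes, had values of 6.283, 6.444 and 6.68 in WT total RNA and 5.194, 5.555 and 5.876 in WT polyribosomal RNA. The ranges were separate, with differences of −0.91 (SE 0.119, adjusted p = 5.01e-05) in WT and −0.94 (SE 0.105) in Fmr1 KO. Of the Kmt2 (MLL) family, which methylates histone H3 lysine 4 at promoters and enhancers, Kmt2a, Kmt2c and Kmt2e were lower in both genotypes. Kmt2c, a Kleefstra syndrome gene, was lower by −0.65 (SE 0.117) and −0.61 (SE 0.0829) without overlap, at all 3 of its tested probe sets. Kmt2a was lower by −0.65 and −0.37. Kmt2e, a family member for which no methyltransferase activity is established, ran from 9.875 through 10.05 to 10.21 in WT total RNA and from 8.415 through 9.492 to 9.881 in WT polyribosomal RNA. These ranges just overlapped (−0.76, SE 0.191, adjusted p = 0.00453), and all 4 of its probe sets were lower in both genotypes. Kmt2d, the Kabuki syndrome gene, was lower in Fmr1 KO (−0.49, adjusted p = 0.00844) and not called in WT (−0.27, adjusted p = 0.106), though it was without lysate 2 (−0.368, adjusted p = 0.0476). Kmt2b was not called in either (0.07 and −0.08).

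Setd4 was higher in both genotypes without overlap, with values of 4.411, 4.486 and 4.655 in WT total RNA and 4.757, 4.888 and 5.005 in WT polyribosomal RNA (0.36, SE 0.0766, adjusted p = 0.00147; in Fmr1 KO 0.62, SE 0.132). Setd5, an intellectual disability gene, and Setdb1, which writes repressive trimethylation of histone H3 lysine 9, were higher in WT (0.34, adjusted p = 0.00683, and 0.31, adjusted p = 0.0124) and not called in Fmr1 KO (0.04 and 0.15). A second probe set of each was called lower in WT (−0.59 for Setd5 and −0.28 for Setdb1), so neither has a single direction, and the Setd5 call was lost without the lysate block (adjusted p = 0.0793). Setd1b, Setd3, Setd6 and Setd7 were not called in either genotype (differences of −0.13 to 0.20). Setd6 was called higher in Fmr1 KO without lysate 2 (0.236, adjusted p = 0.0483) or 3 (0.248, adjusted p = 0.0371), and after centring or quantile normalization.

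Of the 16 histone demethylases tested, 5 were higher (31.2%) and 4 lower (25.0%) in WT, near the shares of all genes (37.5% and 28.4%). In Fmr1 KO 4 were higher and 4 lower (25.0% each), against 38.7% and 28.2% of all genes. The demethylase medians were 0.10 in WT and 0.05 in Fmr1 KO. Kdm1a (LSD1), the amine oxidase that demethylates histone H3 lysine 4 with the CoREST complex, had values of 11.17, 11.28 and 11.33 in WT total RNA and 11.39, 11.69 and 11.87 in WT polyribosomal RNA. It was higher without overlap (0.40, SE 0.0903, adjusted p = 0.00223 in WT and 0.36, SE 0.0914 in Fmr1 KO). Kdm1b (LSD2) was higher in WT by 0.26 (lost without lysate 1, 3, 5 or 6, 0.223 to 0.257, adjusted p up to 0.083) and not called in Fmr1 KO (0.19). Kdm6b (JMJD3), which removes the polycomb mark at histone H3 lysine 27, was higher by 0.53 (SE 0.1) and 0.40 (SE 0.085), and its X-linked paralog Kdm6a (UTX) was not called (−0.10 and −0.12).

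The Kdm5 family, which removes methyl groups from histone H3 lysine 4, held both directions. Kdm5a had values of 8.29, 8.465 and 8.717 in WT total RNA and 7.378, 7.849 and 8.271 in WT polyribosomal RNA, and was lower by −0.60 (SE 0.138, adjusted p = 0.00253) and, in Fmr1 KO, by −0.55 (SE 0.0984). Y-linked Kdm5d was also lower without overlap in both (−0.61, SE 0.115 and −0.69, SE 0.0904). X-linked Kdm5c, an intellectual disability gene, ran from 8.026 through 8.292 to 8.636 in WT total RNA and from 8.458 through 8.801 to 9.113 in WT polyribosomal RNA. It was higher in 5 of 6 lysates (0.49, SE 0.121, adjusted p = 0.0039) and higher in Fmr1 KO by 0.32 (lost without lysate 2, 3 or 4, 0.218 to 0.314, adjusted p up to 0.0978). Kdm5b was higher by 0.35 and 0.33, and lost the call without lysate 6 in WT (0.292, adjusted p = 0.0566) and without lysate 1, 2, 3, 4 or 6 in Fmr1 KO (0.184 to 0.357, adjusted p up to 0.119). Kdm4c was lower by −0.34 (SE 0.0872) and −0.61 (SE 0.112). Kdm7a was lower in WT by −0.36 (without lysate 2, −0.286, adjusted p = 0.0602, without 6, −0.273, adjusted p = 0.0659, and without the lysate block, adjusted p = 0.111) and Kdm3b in Fmr1 KO by −0.31 (without lysate 1, 3, 5 or 6, −0.193 to −0.315, adjusted p up to 0.102). Kdm2a, Kdm2b, Kdm3a, Kdm4a and Kdm4b were not called in either genotype, but Kdm4b (0.28 in WT) was called higher without lysate 4 of WT (0.428, adjusted p = 0.00138).

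No deacetylase was called lower, where 28.4% of all genes were lower in WT and 28.2% in Fmr1 KO. Of 9 tested, 7 were higher in WT (77.8%, against 37.5% of all genes) and 6 in Fmr1 KO (66.7%, against 38.7%). Their medians were 0.48 and 0.38. Hdac8, an X-linked class I enzyme that deacetylates cohesin, rose most, from signal near background at 4.059, 4.344 and 4.803 in WT total RNA to 5.068, 5.641 and 6.236 in WT polyribosomal RNA. All polyribosomal arrays exceeded all total arrays (1.20, SE 0.159, adjusted p = 5.46e-05), as in Fmr1 KO (1.26, SE 0.158, adjusted p = 3.08e-05). Hdac11, the sole class IV enzyme, had values of 8.86, 9.04 and 9.201 in WT total and 9.361, 9.74 and 9.957 in WT polyribosomal RNA, without overlap (0.68, SE 0.0888 in WT and 0.67, SE 0.0982 in Fmr1 KO). The class I enzymes of the Sin3, NuRD and NCoR corepressors were higher in both genotypes: Hdac1 by 0.48 and 0.38, Hdac2 by 0.36 and 0.47, and Hdac3 by 0.48 and 0.51. Hdac2 ran from 11.42 through 11.54 to 11.59 in WT total RNA and from 11.8 through 11.81 to 12.05 in WT polyribosomal RNA, a small and separate shift. Hdac6, the cytoplasmic tubulin deacetylase, was higher in WT (0.50, adjusted p = 0.0015) and not called in Fmr1 KO (0.28, adjusted p = 0.0777). Of the class IIa enzymes, which shuttle between nucleus and cytoplasm, Hdac5 was higher by 0.24 (lost without lysate 2, 4 or 6 of WT, 0.17 to 0.231, adjusted p up to 0.145) and 0.34, and Hdac4 (0.17 and 0.20) and Hdac9 (−0.05 and 0.12) were not called.

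The 2 genotypes, which share no arrays in these comparisons, gave the calls in Fmr1 KO and WT largely to the same genes. All 16 genes higher in Fmr1 KO were among the 21 higher in WT (76.2% of those), and the 5 called only in WT were Hdac6, Kdm1b, Setd5, Setdb1 and Smarca4. Of the lower genes, 24 were shared, 96.0% of the WT calls and 92.3% of the Fmr1 KO calls. Kdm7a was called only in WT, and Kdm3b and Kmt2d only in Fmr1 KO. In Fmr1 KO Kdm7a just missed the threshold (−0.21, limma adjusted p = 0.0508, lower in 6 of 6 lysates). Its other tested probe set was called lower there (−0.59, adjusted p = 0.000686). No gene was called in opposite directions, and 61 of 66 had the same sign. The matching overlap over all genes was not computed, so this likeness cannot be read as a trait of this group. Among genes not called in Fmr1 KO, leaving out lysate 5 there brought Hdac6 (0.384), Kdm1b (0.29), Setdb1 (0.271), Hdac4 (0.251) and Kdm4b (0.309) past the threshold on the higher side and Kdm7a (−0.243) on the lower side. None of the differences between genotypes in these shifts passed its own test, given with the genotype comparison.

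Where a gene had several probe sets, they did not always tell the same story. Of 30 genes with 2 or more tested probe sets in WT, all probe sets were called one way in 13 and opposite ways in 4 (Arid2, Arid5b, Setd5 and Setdb1). In Fmr1 KO this held for 11 and 2 of 28 (Arid2 and Arid5b). The matching shares over all genes with several probe sets were not computed, so these counts only describe the group. Some genes that were not called at their brightest probe set were called in both genotypes at another. These were Hdac4 (0.81 in WT and 0.70 in Fmr1 KO), Arid1a (0.58 and 0.48), Smarcal1 (0.53 and 0.55) and Chd4 (0.52 and 0.35), all higher, and Kdm6a (−0.46 and −0.64), lower. The other tested probe sets of Kdm5a were not called in WT (0.21 and 0.00), and 1 of the 3 of Kdm5c stood at −0.21 without a call. Which stretch of the mRNA each probe set reads was not analysed here.

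**Figure D3:**
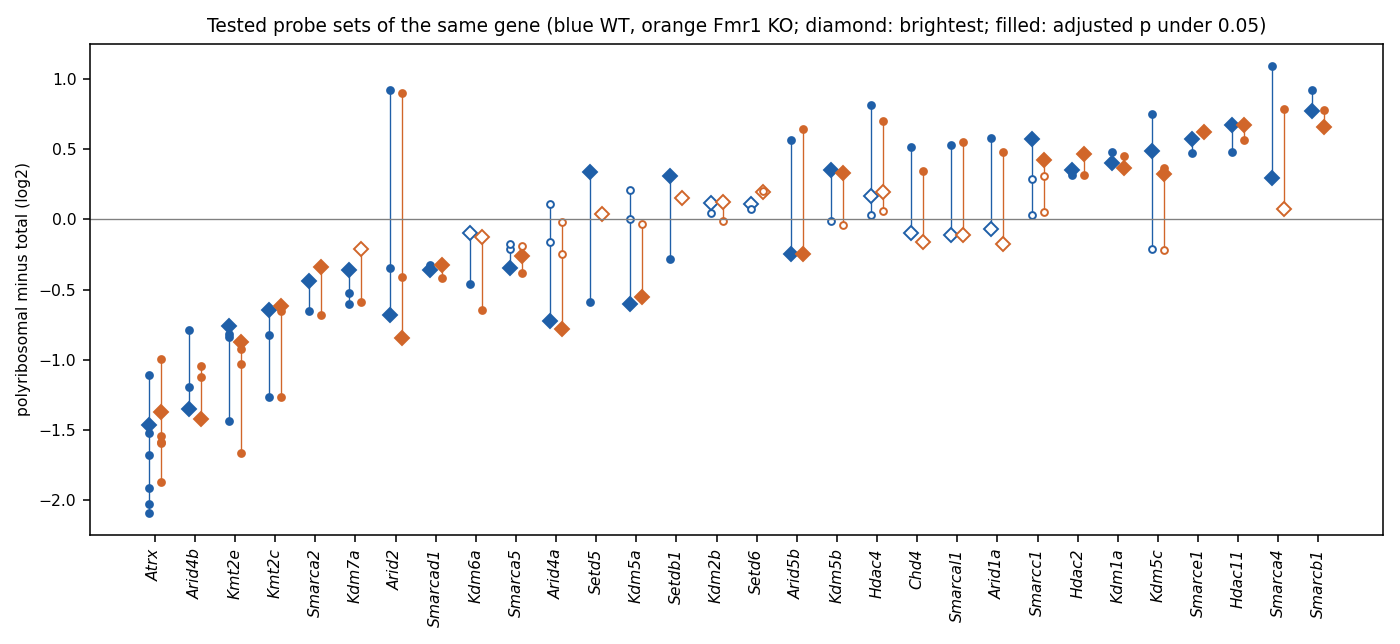
Polyribosomal minus total difference (log2; WT in blue, Fmr1 KO in orange) of every tested probe set of the genes with several, 1 column per gene, with the brightest as a diamond and filled symbols where it was called. Those of Atrx, Kmt2e, Kmt2c and Arid4b all lie below 0, and in WT those of Arid2, Arid5b, Setd5 and Setdb1 are called on both sides.

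The genes that were lower in polyribosomal RNA came from longer stretches of genome. The median distance from start to end of the gene, introns included, was 83.2 kb for the WT lower genes, 27.6 kb for the higher and 67.6 kb for those not called (RefSeq annotation, GRCm38.p6). Over all genes the corresponding medians were 26.7, 23.7 and 32.0 kb. Across the 66 genes the Spearman correlation of gene span with the polyribosomal minus total difference was −0.48 in WT and −0.48 in Fmr1 KO, and across all genes it was −0.05 and −0.07. Genes are not independent replicates, and the length of the mature mRNA was not analysed here, so its part in these differences was not tested.

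Fmr1 KO and WT were then compared within each RNA kind, which asks whether losing FMRP changed the amount of these mRNAs in the cytoplasm or on polyribosomes. No gene of this group was called in either. In polyribosomal RNA, where 0.0103% of all genes were called, 0 of 67 genes passed the limma test, 4 had an unadjusted p under 0.05, and the lowest adjusted p was 1.0. In total RNA, where 0.0413% were called, 0 of 66 passed, 2 had an unadjusted p under 0.05, and the lowest adjusted p was 0.964. Differences ran from −0.37 to 0.50 in polyribosomal RNA and from −0.22 to 0.19 in total RNA, and the median 95% interval reached 0.275 and 0.186 to either side. In these bulk samples, fewer cells of a type and less RNA per cell cannot be told apart.

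The smallest unadjusted p in polyribosomal RNA belonged to Arid2, with mean log2 values of 7.64 in WT and 7.29 in Fmr1 KO (−0.35, SE 0.0987, unadjusted p = 0.00296, adjusted p = 1.0 by limma, lower in 5 of 6 pairs). Pairs here are WT and Fmr1 KO arrays of equal replicate number, taken to be littermates although the labels do not say so for each sample. Smarcd2 averaged 7.01 in WT and 7.51 in Fmr1 KO (0.50, SE 0.152, unadjusted p = 0.00481, adjusted p = 1.0 by limma). Its Fmr1 KO arrays were the higher in 6 of 6 pairs, and the groups overlapped. Setd4 (0.33, unadjusted p = 0.0168) and Chd1 (−0.37, unadjusted p = 0.0357) followed by limma, each with the same direction in 6 of 6 pairs and with overlapping groups, and then Kdm4c (−0.30, unadjusted p = 0.0544, 4 of 6 pairs). In total RNA the smallest were Hdac9 (−0.22, unadjusted p = 0.0288, adjusted p = 0.964, 6 of 6 pairs) and Smarca4 (0.13, unadjusted p = 0.0437, adjusted p = 0.982, 5 of 6 pairs) by limma, then Smarcd1 (0.16), Kdm6b (0.19) and Arid5b (−0.16), with unadjusted p of 0.0641 to 0.108. None of these passed the adjustment over all probe sets.

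**Figure D4:**
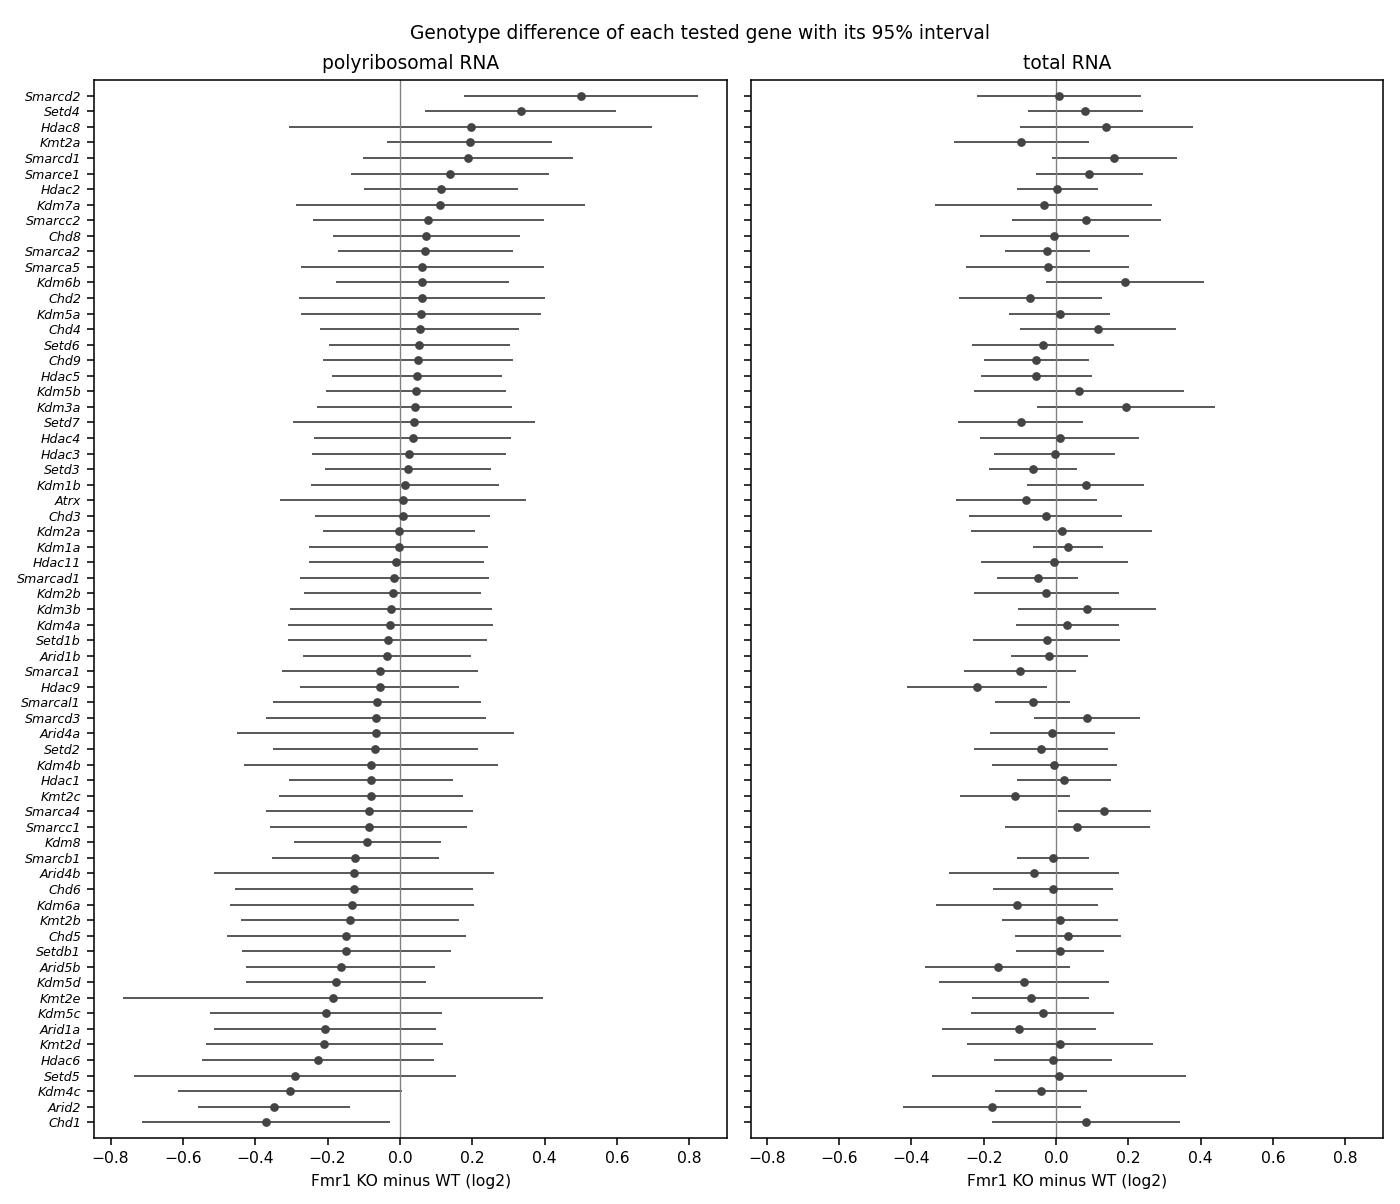
Fmr1 KO minus WT difference (log2) of each tested gene in total and in polyribosomal RNA, as a point with its 95% confidence interval, in the order of the polyribosomal difference. No gene passed the adjusted threshold of 0.05, and Smarcd2 (0.50) and Chd1 (−0.37) lie farthest from 0 in polyribosomal RNA.

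The difference of the 2 genotypes in polyribosomal association was tested on the 12 differences between a lysate's arrays. Of 67 genes, 0 were called by limma, where 0% of all 9955 genes were, 2 had an unadjusted p under 0.05, and the lowest adjusted p was 0.999. Smarcd2 shifted by 0.80 in WT and by 1.29 in Fmr1 KO, a gap of 0.49 (SE 0.199, unadjusted p = 0.0243, adjusted p = 0.999 by limma). Chd1 shifted by −0.79 and −1.24, a gap of −0.45 (SE 0.192, unadjusted p = 0.0316, adjusted p = 0.999 by limma). For the genes called only in WT the gaps were also not called, among them Setd5 (−0.30, 95% interval −0.615 to 0.0186). Kmt2a (0.29) and Kdm4c (−0.26) completed the 5 smallest p-values. The median 95% interval reached 0.307 to either side.

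Other genes of the same chromatin machinery, 153 of them tested in WT, were read from 10 lists beside the group. Of these, 69 were higher (45.1%, against 37.5% of all genes) and 41 lower (26.8%, against 28.4%) in WT polyribosomal RNA, with a median of 0.16. In Fmr1 KO 66 of 152 were higher (43.4%, against 38.7%) and 41 lower (27.0%, against 28.2%), with a median of 0.11. The lower shares were thus near those of all genes. None was called between genotypes or in the difference between them. Several partners of the enzymes above stood on the other side of 0. Daxx, the histone H3.3 chaperone that works with Atrx, was higher by 1.38 (SE 0.0913) in WT and 1.46 (SE 0.121) in Fmr1 KO. Of the 12 partners of the Kmt2 complexes, 8 were higher and 2 lower in both genotypes (66.7% and 16.7%). The lower were Paxip1 (−0.57 in WT) and Dpy30 (−0.505 in WT and −0.435 in Fmr1 KO). Wdr5 (1.13 and 1.18), Ash2l (0.87 and 0.77), Men1 (0.66 and 0.51) and Rbbp5 (0.46 and 0.47) were among the higher. Of 16 further BAF subunits, 8 were higher (50.0%, Dpf2 by 0.61) and 2 lower (12.5%, Bcl7c by −0.95) in WT. Actl6b, the neuronal actin-like subunit, was lower (−0.46 and −0.51), and Actl6a, its progenitor counterpart, was higher (0.44 and 0.51).

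Corepressor partners of the deacetylases were higher in 9 and lower in 5 of 21 in both genotypes (42.9% and 23.8%), near the shares of all genes. Tbl1x of NCoR was higher by 0.99 and 0.95, Rcor1 (CoREST) by 0.34 and 0.39, and Ing1 of Sin3 was lower by −1.15 and −1.13. The polycomb list, whose complexes write repressive histone marks, had 6 higher and 11 lower of 23 in both (26.1% and 47.8%), and contained the lowest value of all lists in WT, Pcgf3 at −2.07 (SE 0.113). Yaf2, a subunit of polycomb repressive complex 1, was lower by −1.35 and −1.28 and Ezh2 by −0.32 and −0.26. Eed (0.446 and 0.607), Suz12 (0.34 and 0.33) and Cbx8 (0.80 and 0.58) were higher. Histone acetyltransferases, which oppose the deacetylases, were higher in 9 and lower in 6 of 19 in WT (47.4% and 31.6%), with Hat1 higher (0.86 and 1.00), Kat6a (−0.61 and −0.63) and Ep300 (−0.57 and −0.78) lower, and Crebbp not called (0.05 and −0.01). Of the 5 sirtuins, NAD-dependent deacylases, 3 were higher and 2 lower in both (60.0% and 40.0%), with Sirt7 at 0.69 and Sirt3 at −0.84 in WT. Of 20 other methyltransferase genes 11 were higher and 3 lower in WT (55.0% and 15.0%), from Prmt5 at 0.91 to Smyd2 at −1.13. Of 23 other remodellers and partners, Daxx included, 10 were higher and 6 lower (43.5% and 26.1%), down to Baz2b at −1.12. Of 7 other demethylases 4 were higher and 2 lower (57.1% and 28.6%), from Riox1 at 1.06 to Jmjd1c at −0.95. Of 7 DNA methylation genes, 1 was higher (14.3%, Mbd1, 0.59) and 2 were lower (28.6%), Tet2 by −0.73. The shares of all genes in WT were 37.5% higher and 28.4% lower. Of the related genes named here, Ash2l, Men1, Rbbp5, Dpy30, Actl6a, Actl6b, Rcor1, Yaf2, Ezh2, Eed, Suz12, Ep300 and Crebbp were picked after their values were seen. The others are the largest called rise or fall of their list in WT.

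**Figure D5:**
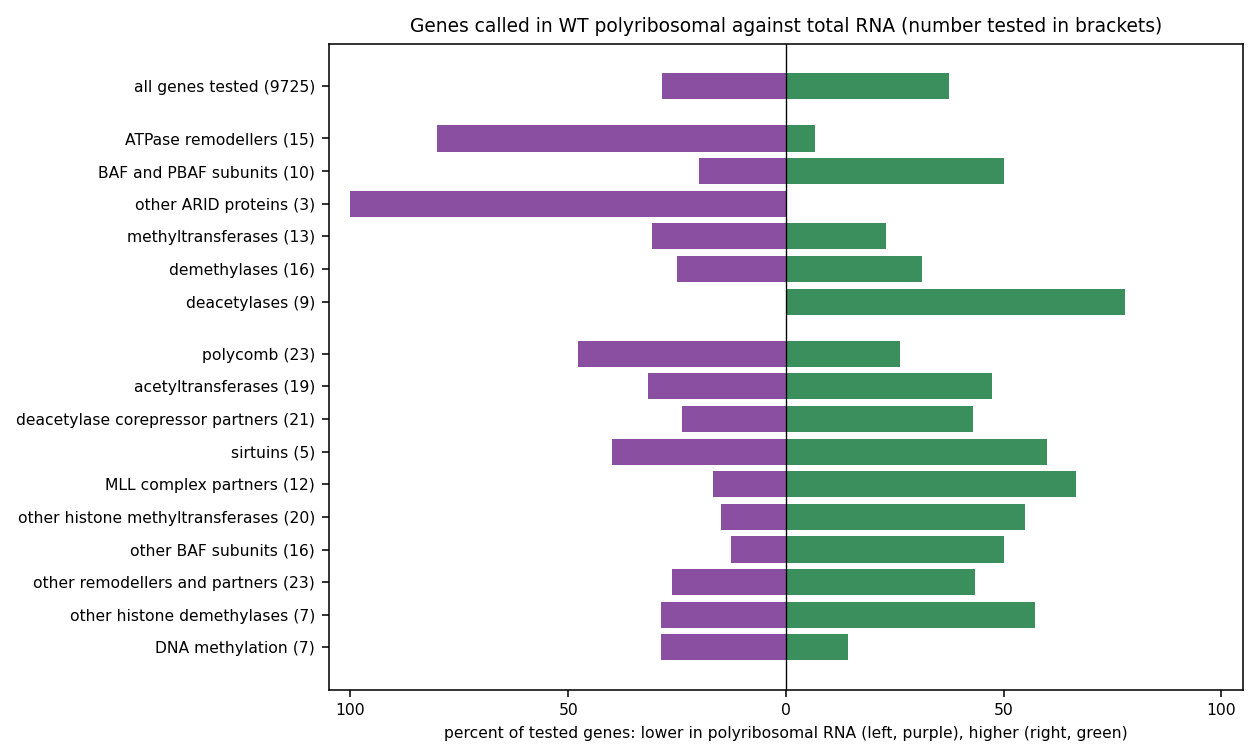
Share of tested genes called higher and lower in polyribosomal RNA (percent of the genes tested in WT, bars to the right for higher and to the left for lower) for all genes, each role and each list of related genes. ATPase remodellers are called lower in 80.0% and deacetylases higher in 77.8%.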

How the data were processed

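Total and polyribosomal RNA of 12 cortical lysates (6 WT, 6 Fmr1 KO) had been put on 24 Affymetrix Mouse 430 2.0 arrays. Per the submitters' processing notes, the authors made the deposited log2 values with GCRMA (background correction from probe sequence, normalization across arrays and 1 summary value per probe set); its version is not given in the sources used here. GCRMA pulls dim probe sets together, so changes of dim genes can be understated. No batch was given, and the number of arrays limits the precision. Replicates were separate pools of mice, per the labels' protocols.

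Genes were named from the platform annotation, using the 34945 probe sets with 1 symbol, and a gene stands for its probe set of highest mean over the 24 arrays. Probe sets entered a comparison if 6 or more of its arrays had a log2 value of 4 or higher. The 5 comparisons were Fmr1 KO minus WT in polyribosomal and in total RNA, polyribosomal minus total RNA in each genotype with lysate as the block, and the difference between the genotypes in the latter. Two-sided tests came from lmFit and eBayes of limma 3.58.1, run under R 4.3.3. The p-values were adjusted by Benjamini and Hochberg's method over all probe sets tested, with a threshold of 0.05; every adjusted p in the text is from this test. Fmr1 was compared by an exact permutation test over 924 splits. Every tested gene is given at least by its call; by the naming rule fuller values went to the 10 largest called rises and falls in each polyribosomal against total comparison, the 5 smallest p in each genotype comparison, preset groups of paralogs, genes whose probe sets were called in opposite directions, and the largest called rise and fall of each related list. The members, roles, gene lists and named genes were chosen with earlier results of these data known.

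Equal replicate numbers mark the 2 arrays of a lysate: residuals of such arrays had correlations of 0.0211 to 0.525 (WT) and 0.156 to 0.474 (Fmr1 KO), and the study was set up with littermates of both genotypes, whose residuals had correlations of 0.133 to 0.532 (total RNA) and -0.137 to 0.625 (polyribosomal RNA) for equal numbers. That equal numbers mean littermates is an assumption, and in polyribosomal RNA only 3 of 6 numbers correlated best with themselves. The fits were tested on simulated data with 200 changed probe sets and noise that ignored the lysate pairing. Changes of 0.25 were recovered in 0% in every comparison. Changes of 0.5 were recovered in 46% (polyribosomal) and 49% (total) between genotypes, and in 0.5% for the difference between them. Changes of 1 were recovered in 96.5%, 96% and 82% in that order, so small genotype differences could be missed. For polyribosomal against total RNA, recovery was 0% in WT and 11% in Fmr1 KO at 0.5, and 93% and 95% at 1. There the simulation does not match the data, in which 12263 of 17893 WT probe sets had an unadjusted limma p under 0.05. Alternatives were other filters, array centring, quantile normalization, averaging the probe sets of a gene, leaving out _s_at and _x_at probe sets, an intensity trend with robust eBayes, 1 fit of all 24 arrays, leaving out each lysate number, and the replicate block. Plots were made in Python 3.11.15 with matplotlib 3.10.9.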

Additional observations from a re-analysis of the deposited data

Results flagged for a closer look

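Among the 30 genes given in full, 6 of 120 groups of 6 arrays had 1 array apart from the others by Dixon's criterion, and chance gives about 6. In total RNA, Atrx read 11.23 in Fmr1 KO lysate 5 (nearest other array 11.57), Chd2 read 7.219 in WT lysate 1 (nearest 7.515), and Smarcc1 read 8.448 in Fmr1 KO lysate 2 (nearest 8.679). In polyribosomal RNA, Chd6 read 4.873 in Fmr1 KO lysate 5 (nearest 5.617), and without that lysate its difference was -0.92. Smarca4 was low in WT lysate 3 of total RNA (10.33, nearest 10.57) and in WT lysate 4 of polyribosomal RNA (10.38, nearest 10.85). Its WT difference was 0.231 without lysate 3 (adjusted p = 0.125 by limma) and 0.409 without lysate 4 (adjusted p = 0.00184 by limma). No gene moved one way in every WT lysate and the other way in every Fmr1 KO lysate.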

How the results depend on the processing

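Over the alternatives run, WT calls numbered 17 to 23 higher and 20 to 25 lower, and Fmr1 KO calls 12 to 21 higher and 21 to 27 lower. The genotype comparisons and their difference had 0 calls under each. In both genotypes, 13 higher and 16 lower genes kept their call under every alternative in which they were tested, Hdac8, Smarcd2, Atrx and Arid4b among them. Without the replicate block, polyribosomal against total RNA gave 20 higher and 24 lower genes in WT and 16 and 24 in Fmr1 KO. The calls lost were those of Kdm7a (adjusted p = 0.111) and Setd5 (0.0793) in WT and of Arid5b (0.086) and Smarca5 (0.11) in Fmr1 KO by limma. Adding a block of littermate pairs to the genotype comparisons left 0 calls. Averaging the probe sets of a gene turned the sign of Arid1a (0.258 in WT, 0.156 in Fmr1 KO), Arid5b (0.163, 0.2), Chd4 (0.209, 0.0933), Smarcal1 (0.21, 0.222) and, in WT, Setd5 (-0.126), with Smarcal1 called higher in both (adjusted p = 0.0403 and 0.0416 by limma). It ended the WT calls of Arid2 (-0.033), Arid4a (-0.258), Kdm5a (-0.13), Kdm5b (0.17), Setdb1 (0.0147) and Smarca5 (-0.241) and the Fmr1 KO calls of Arid2 (-0.117), Kdm5b (0.145) and Kdm5c (0.157). It added calls for Hdac4 (0.34, 0.318) and Kdm6a (-0.279, -0.383) in both and for Kdm7a (-0.399) and Smarca4 (0.431) in Fmr1 KO. Values near 0 also changed sign: Setd3 in WT after centring (0.0104), Kdm2b in Fmr1 KO without _s_at and _x_at probe sets (-0.0138) and Kdm4a in Fmr1 KO after quantile normalization (0.00337). Without the filter, Smarca1 and Smarca4 in WT and Arid5b, Kdm3b and Kdm5b in Fmr1 KO lost their calls. Quantile normalization ended all of these but Kdm5b. Centring ended Smarca1 in WT and Arid5b in both, and the trend Hdac5 in WT and Arid5b in Fmr1 KO. The 1 fit ended Setd5 in WT and Smarca5 in Fmr1 KO (limma adjusted p 0.0512 to 0.0826 in all). Calls were gained by Kdm4b in WT (centring, quantile, 1 fit) and in Fmr1 KO by Hdac6 (1 fit) and Kdm7a (other filters). When single lysates were left out, WT differences ran from -0.129 to 0.0169 for Arid1a, -0.0128 to 0.139 for Kdm3a, -0.163 to 0.000372 for Kdm6a, -0.0845 to 0.023 for Setd3 (0.0176 without number 1) and -0.119 to 0.114 for Setd7. In Fmr1 KO they ran from -0.103 to 0.0435 for Kdm4a (0.0179 without number 5) and -0.0533 to 0.119 for Setd5 (-0.0013 without number 5). Signal near background limits Hdac8 (mean 4.408 in WT total RNA), Setd4 (4.514), Smarcd1 (4.609), Chd8 (4.945), Kdm5d, Kmt2a, Kdm8 and the genes left untested.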
